A study of Homo sapiens with 32 samples.

Results

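NODAL and CXCR4 belong to the induction of endoderm, the germ layer from which the pancreas forms. NODAL encodes a secreted ligand of the transforming growth factor-β family. It signals through activin receptors and SMAD transcription partners, helps to hold human embryonic stem cells (hESCs) in the pluripotent state and, at stronger signalling, drives them to primitive streak and definitive endoderm. Its inhibitors LEFTY1 and LEFTY2 are themselves targets of the pathway. CXCR4 encodes the G protein-coupled receptor of the chemokine CXCL12. It is widely used as a surface marker of definitive endoderm, but migrating neural progenitors, blood cells and other cell types carry it as well. The members described here are all merged N6-methyladenosine (m6A) peaks whose Ensembl gene ID matched NODAL or CXCR4, which gave 6 of 26104 peaks and 2 of 7978 genes. NODAL (ENSG00000156574) had 1 peak and CXCR4 (ENSG00000121966) had 5. Each peak is named by its gene and by the position within the gene that is listed beside the gene ID (NODAL_344; CXCR4_575, CXCR4_975, CXCR4_1125, CXCR4_1425 and CXCR4_1575), and no chromosome coordinates were used.

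The study followed H1 and MEL1, 2 established hESC lines, through directed differentiation towards pancreatic β-cells. Cells were collected undifferentiated (S0), as posterior foregut (S3), as pancreatic progenitors (S4) and as immature β-like cells (S6), with 2 replicates per line and stage. The protocol's stages S1, S2 and S5 have no libraries here. S1, at which the study measured CXCR4-positive cells by flow cytometry, was thus not seen. The lines differ in genetic background, and no genetic change separates the stages within a line. For its principal components the study regressed out a batch effect in H1 and MEL1. The batches are not described, so line and batch cannot be told apart in comparisons of MEL1 with H1. Both lines received the same media, but the additives change with the stage. GDF8, a ligand that acts through activin receptors, and the GSK3 inhibitor CHIR-99021 opened the protocol, and SANT-1, LDN-193189 (a BMP receptor inhibitor) and retinoic acid were added shortly before S3 was collected, SANT-1 and retinoic acid staying on to S4. After S4, ALK5 inhibitor II, which blocks a type I receptor of the transforming growth factor-β family, and the thyroid hormone T3 were present up to S6. LDN-193189 was given again in the first part of this step, with SANT-1 and retinoic acid at its start. GSiXX followed, and R428 was among the additives of the last days. Stage and additives cannot be told apart. From each preparation, fragmented mRNA was sequenced before (input) and after immunoprecipitation with an m6A antibody (IP), giving 16 input and 16 IP libraries. The study describes the replicates as independent biological samples, and no cell sorting is described for the m6A libraries. Expression here is the sum of a gene's input reads over its merged peaks, in counts scaled to library size (CPM, TMM scaling), and m6A at a peak is given as log2 IP over input. In such bulk RNA, fewer cells that express a gene and less RNA per cell cannot be told apart.

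The input libraries held 2652830 to 6879256 reads over peaks and the IP libraries 2378881 to 15674899, the shallowest IP libraries being those of MEL1 at S4. Mitochondrially encoded transcripts took 11.6 to 41% of input reads. The IP libraries of both lines at S4 stood apart, those of MEL1 in depth and those of H1 in their mitochondrial share, which was 0.0465 and 0.051% against 0.388 to 2.25% in all other IP libraries. Stem cell and foregut markers moved in both lines. The summed level of 10 measured markers of undifferentiated stem cells lay between 8670 and 9020 CPM in H1 and between 10900 and 12700 CPM in MEL1 at S0, and was 1070 to 1120 CPM in H1 and 701 to 706 CPM in MEL1 at S6. The 6 posterior foregut markers summed to 11.8 to 14.4 CPM at S0, to 990 to 1030 CPM in H1 at S3 and to 2990 to 3040 CPM in MEL1 at S3. Of 10 listed β-cell and endocrine markers, CHGA and ISL1 had counts, and CHGA was at 721 to 810 CPM at S6 in both lines, after 233 and 243 CPM in H1 and 62.3 and 73.1 CPM in MEL1 at S0. The 4 measured pancreatic progenitor markers summed to 99.7 to 111 CPM at S3, 101 to 102 CPM at S4 and 36.4 to 40.1 CPM at S6 in H1, and to 42.6 to 43, 43.7 to 45.7 and 161 to 164 CPM in MEL1. The lines differed in neural genes. Nestin (NES), an intermediate filament gene of neural progenitors, was at 2440 and 2510 CPM in H1 but at 37.8 and 41.7 CPM in MEL1 at S3.

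NODAL was present before differentiation and almost gone in β-like cells of both lines, but MEL1 cells began with far more of it. In H1, input levels were 4.35 and 6.59 CPM at S0 (5.47 ± 1.58, SD, n = 2), 4.73 and 8.03 CPM at S3, 1.23 and 0.686 CPM at S4, and 0.178 and 0.441 CPM at S6. In MEL1, they were 102 and 100 CPM at S0 (101 ± 1.41, SD, n = 2), 37.3 and 20.3 CPM at S3, 30.3 and 28.4 CPM at S4, and 0.373 and 0 CPM at S6. All MEL1 libraries lay above all H1 libraries at S0, S3 and S4, whereas the S6 libraries of the lines overlapped. The reads behind these values were few in H1, with 18 and 29 at S0 and 5 in each S4 library, and 1, 2, 1 and 0 reads were left in the 4 S6 libraries.

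CXCR4 ran the other way. H1 input levels were 3.38 and 1.82 CPM at S0 (2.6 ± 1.1, SD, n = 2), 26.8 and 31.5 CPM at S3 (29.2 ± 3.32), 80.2 and 179 CPM at S4 (130 ± 69.9), and 279 and 274 CPM at S6 (276 ± 3.54). MEL1 levels were 2.67 and 1.52 CPM at S0 (2.09 ± 0.813, SD, n = 2), 1.25 and 2.48 CPM at S3 (1.86 ± 0.87), 25.6 and 16.6 CPM at S4 (21.1 ± 6.36), and 61.6 and 71.8 CPM at S6 (66.7 ± 7.21). The lines overlapped at S0 and were apart at S3, S4 and S6, with every H1 library above every MEL1 library. The order of stages was S0, S3, S4, S6 in H1 without overlap between neighbours. In MEL1 the S0 and S3 libraries overlapped, and S4 and S6 followed above them.

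**Figure D1:**
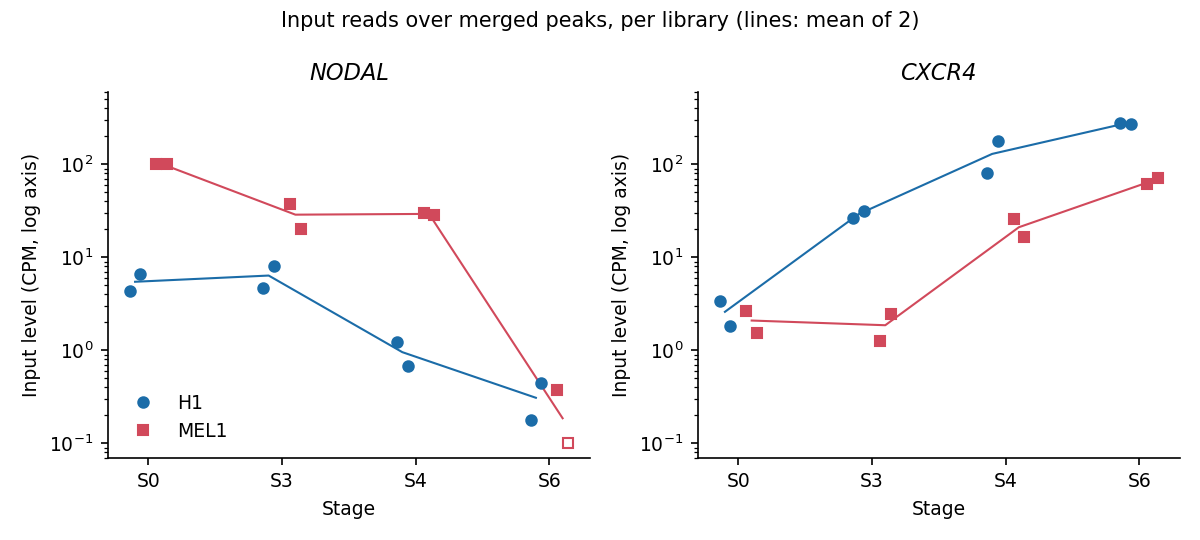
Input level of NODAL (left) and CXCR4 (right) in CPM on a log axis at each stage, 1 point per library, with lines through the mean of the 2 replicates (blue circles for H1 and red squares for MEL1). The open square is a library with 0 NODAL reads, drawn at the bottom of the axis. MEL1 lies above H1 for NODAL from S0 to S4 and below H1 for CXCR4 from S3 to S6.

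Each stage was first compared with the one before it over both lines, with cell line as a term. Adjusted p-values are those of the quasi-likelihood method in edgeR, by Benjamini-Hochberg over 7973 genes, and a gene was called changed at an adjusted p below 0.1 with a fold change of at least 2. CXCR4 rose in each of the 4 comparisons. Its log2 fold change was 2.08 (SE 0.56) from S0 to S3, where 28.8% of all genes were called in either direction (edgeR, adjusted p = 0.00808, higher without overlap of replicates in H1 only). From S3 to S4, a step at which 1.84% of genes were called, it was 2.47 (SE 0.46, edgeR adjusted p = 0.014, higher without overlap in both lines), and this call was lost without cell line in the model (2.28, edgeR adjusted p = 0.522). From S4 to S6, where 5.18% were called, it was 1.36 (SE 0.43, edgeR adjusted p = 0.0759, higher without overlap in both lines). Across the whole course, from S0 to S6, with 31.4% of genes called, CXCR4 rose by 5.91 (SE 0.56) on the log2 scale (edgeR, adjusted p = 1.11e-06, higher without overlap in both lines). The call from S4 to S6 is the least firm of these: it was lost when any one of 7 of the 8 S4 and S6 input libraries was left out, with log2 fold changes of 1.20 to 1.43, and kept without H1 S4 replicate 2 (1.69). With the replicate number as a block (1.41, edgeR adjusted p = 0.114) and without cell line in the model (1.18, edgeR adjusted p = 0.591) it was lost as well.

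The fall of NODAL passed over both lines together from S4 to S6 and not before. The pooled change from S0 to S3 was -0.85 (SE 0.51, edgeR adjusted p = 0.202, lower without overlap in MEL1 only) and that from S3 to S4 was -1.06 (SE 0.53, edgeR adjusted p = 0.404, lower without overlap in H1 only), and neither passed. Without H1 S3 replicate 2 the first of these was -1.26 and passed. From S4 to S6 NODAL fell by 4.78 (SE 0.85) on the log2 scale (edgeR, adjusted p = 0.00433, lower without overlap in both lines, but -5.67 with an edgeR adjusted p of 0.11 without cell line in the model), and from S0 to S6 it fell by 6.70 (SE 0.81, edgeR adjusted p = 1.17e-05, lower without overlap in both lines). Since 4 reads remained at S6, reads scaled to library depth were also compared directly. Over both lines S4 held 37.9 times the S6 value (exact 95% interval 14.5 to 141) and S0 held 163 times (63.6 to 601). These intervals cover counting error only.

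The course differed between the lines, and the change was therefore also fitted within each line and the difference of the changes tested. In H1, NODAL did not pass from S0 to S3 (log2 fold change 0.21, 95% interval -0.54 to 0.97, edgeR adjusted p = 0.707; 21.8% of genes called in this comparison) and fell by 2.79 from S3 to S4 (SE 0.50, edgeR adjusted p = 0.000758), a step at which 1.88% of genes fell in H1. In MEL1, it fell by 1.82 from S0 to S3 (SE 0.29, edgeR adjusted p = 1.84e-05), where 22% of genes fell. It then stayed between 20.3 and 37.3 CPM through S4, with a fitted change of 0.03 from S3 to S4 (95% interval -0.57 to 0.63, edgeR adjusted p = 0.973; 11% of genes called). The final loss also differed in size. From S4 to S6, the NODAL change in MEL1 was -7.04 (SE 0.67, edgeR adjusted p = 1.02e-07, with 8.75% of genes lower), and the read ratio of S4 to S6 was 150 (exact 95% interval 26.6 to 5980). In H1, where S4 was already low, it was -1.50 (SE 0.88, edgeR adjusted p = 0.27, with 8.48% of genes called), and the read ratio was 3.06 (0.787 to 17.3). Between S0 and S6 H1 fell by 4.09 on the log2 scale (SE 0.65, edgeR adjusted p = 3.23e-05) and MEL1 fell by 8.83 (SE 0.59, edgeR adjusted p = 1.22e-10), against 11.4% and 19.3% of genes falling.

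Between the sampled stages, CXCR4 rose in H1 at every step and in MEL1 only after S3. Its level between S0 and S3 was not measured. In H1 the log2 fold changes were 3.48 from S0 to S3 (SE 0.42, edgeR adjusted p = 1.25e-06), 2.16 from S3 to S4 (SE 0.28, edgeR adjusted p = 2.35e-05) and 1.08 from S4 to S6 (SE 0.26, edgeR adjusted p = 0.0052). The shares of all genes that rose in H1 at those steps were 12.5%, 4.3% and 4.64%. In MEL1 the first step gave -0.15 (95% interval -1.46 to 1.15, edgeR adjusted p = 0.858), against 44.9% of genes called. The following steps gave rises of 3.45 (SE 0.48, edgeR adjusted p = 2.61e-05; 7.8% of genes higher) and 1.67 (SE 0.32, edgeR adjusted p = 0.000502; 8.99% higher). From S0 to S6, CXCR4 was 106-fold higher in H1 and 31.1-fold higher in MEL1 (edgeR, adjusted p = 1.95e-11 and 2.56e-09), against 16.1% and 22.7% of genes rising.

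The difference between the changes, as H1 minus MEL1, was 3.64 for CXCR4 from S0 to S3 (SE 0.82, edgeR adjusted p = 0.00152), where the lines differed at 45.9% of all genes. From S3 to S4 it was -1.29 (SE 0.59, edgeR adjusted p = 0.195) and from S4 to S6 -0.59 (SE 0.41, edgeR adjusted p = 0.371), with 14.1% and 23.1% of genes called. Both later values hung on the H1 S4 libraries: without replicate 2 of H1 S4 they were -1.99, which passed, and 0.12, and without replicate 1 the second was -1.04 and passed. Over the whole course it was 1.77 (SE 0.70, edgeR adjusted p = 0.0626) with 36.3% of genes called, and this call was lost without H1 S0 replicate 2 (1.40), MEL1 S0 replicate 1 (1.32) or MEL1 S6 replicate 1 (1.66). For NODAL all 4 differences passed: 2.03 from S0 to S3 (SE 0.48, edgeR adjusted p = 0.00221), -2.82 from S3 to S4 (SE 0.59, edgeR adjusted p = 0.00319), 5.54 from S4 to S6 (SE 1.64, edgeR adjusted p = 0.0228) and 4.74 from S0 to S6 (SE 1.58, edgeR adjusted p = 0.0293). The last pair of these rest on the 4 reads at S6, and both were lost without H1 S6 replicate 2 (4.88 and 4.09).

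Stage by stage, MEL1 held 18.4-fold more NODAL than H1 at S0 (log2 4.20, SE 0.34, edgeR adjusted p = 5.17e-08), 4.49-fold more at S3 (edgeR, adjusted p = 2.04e-05) and 31.8-fold more at S4 (edgeR, adjusted p = 1.41e-08). In the same comparisons 6.45%, 13.3% and 15.6% of genes were higher in MEL1. At S6 the difference was -0.54 (95% interval -3.42 to 2.34, edgeR adjusted p = 0.807), an interval too wide to place the lines. CXCR4 did not pass at S0 (-0.29, 95% interval -1.50 to 0.93, edgeR adjusted p = 0.774). It was 15.2-fold lower in MEL1 at S3 (edgeR, adjusted p = 3.59e-07), 6.22-fold lower at S4 (edgeR, adjusted p = 5.87e-07) and 4.15-fold lower at S6 (edgeR, adjusted p = 5.51e-06), where 16.5%, 18.4% and 10.8% of genes were lower in MEL1. The 6 differences that passed did so under every other test, scaling and left-out library that was run. Line and batch cannot be told apart in them.

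**Figure D2:**
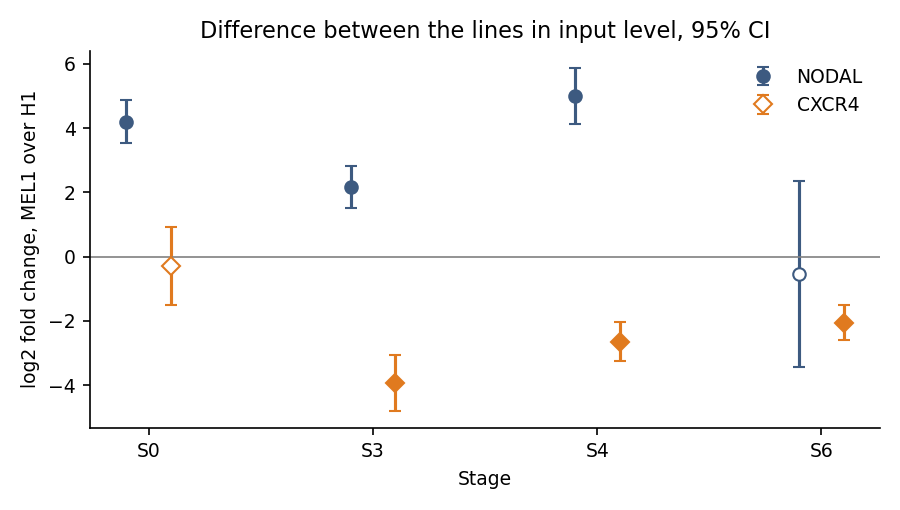
Log2 fold change of input level in MEL1 over H1 at each stage for NODAL (blue circles) and CXCR4 (orange diamonds), with 95% confidence intervals. Filled symbols passed the test. NODAL is above 0 at S0, S3 and S4, and CXCR4 is below 0 at S3, S4 and S6.

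Markers of other cell types moved with these line differences. The 4 measured neural markers (NES, OTX2, SOX1 and STMN2) summed to 2510 to 2570 CPM in H1 and 67.3 to 78.5 CPM in MEL1 at S3, to 1910 to 2480 and 662 to 807 CPM at S4, and to 2210 to 2220 and 598 to 644 CPM at S6. These sums were mostly NES and had the order seen for CXCR4, but at S4 the levels of OTX2 (32.6 and 40.6 CPM in H1, 76.1 and 52.7 CPM in MEL1) and STMN2 (14.3 and 13.2 CPM in H1, 51.3 and 43.9 CPM in MEL1) had the opposite order. The study names STMN2 as a γ-cell identity gene. It was highest at S6, with 265 and 282 CPM in H1 and 90.8 and 103 CPM in MEL1. NES was already at 1080 CPM in both H1 libraries and at 2060 and 1900 CPM in MEL1 at S0. SOX1 was at 0 in all 4 MEL1 libraries of S3 and S4 and between 11.1 and 23 CPM in those of H1. SOX2, a factor of both stem cells and neural progenitors, was at 825 and 836 CPM in H1 and at 6.51 and 25.5 CPM in MEL1 at S3. The 10 measured stem cell markers summed to 3630 to 3720 CPM in H1 and 1800 to 2080 CPM in MEL1 at S3. At S4 they summed to 2210 to 2730 and 1040 to 1110 CPM, again the order of CXCR4 and not of NODAL. PODXL and SOX2 made up most of these H1 sums. Among the 10 markers ZFP42 had the opposite order at S3 (77.1 and 82.8 CPM in H1, 200 and 153 CPM in MEL1). ZFP42 had that order at S4 as well (28.4 and 28 CPM in H1, 56.3 and 65.7 CPM in MEL1). DNMT3B and L1TD1 overlapped between the lines at S4. The 4 measured markers of fibroblasts and stroma summed to 719 to 788 CPM in MEL1 and 65.9 to 90.7 CPM in H1 at S4, the order of NODAL and not of CXCR4, and to 110 to 114 and 101 to 108 CPM at S3. None of 10 listed endothelial and blood markers had counts. The table holds only genes with a merged peak, so these markers were not measured. The part of these cell types in the CXCR4 and NODAL values was not tested. At S0, where NODAL was 18.4-fold higher in MEL1, the neural sums were 1180 to 1190 CPM in H1 and 1950 to 2110 CPM in MEL1.

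Other genes of the Nodal and activin pathway were read from a list of 41, of which 20 besides NODAL had counts. From S0 to S3, 9 of the 20 rose (7 with the replicate number as a block) and 0 fell, with a median log2 fold change of 0.75 against -0.02 over all genes, while 15% of all genes rose and 13.8% fell. Large rises were seen in endoderm transcription factors that respond to the pathway: FOXA2 rose by 7.33 on the log2 scale (edgeR, adjusted p = 1.43e-10), GATA6 by 5.90 (edgeR, adjusted p = 4.18e-09) and SOX17 by 5.61 (edgeR, adjusted p = 0.000712). SOX17 was at 0.411 and 0 CPM at S0 and 0.50 and 0.903 CPM at S3 in MEL1, so its rise, from 3 reads over the 4 S0 libraries, was that of H1. MIXL1, another such target, did not pass (-0.44, edgeR adjusted p = 0.773). Among the receptors ACVR1B, a type I receptor for activin and Nodal, rose by 1.16 (edgeR, adjusted p = 0.00243), and ACVR2A, ACVR2B and TGFBR1 did not pass over both lines. TGFBR1 had opposite courses, from 13.3 and 12.1 to 25.2 and 30.7 CPM in H1 and from 16 and 13.5 to 4.5 and 5.42 CPM in MEL1. The signal transducer SMAD3 rose by 1.11 (edgeR, adjusted p = 0.000365). The ligand BMP4 rose by 1.57 (edgeR, adjusted p = 0.0111), the convertase FURIN by 1.21 (edgeR, adjusted p = 0.0899), and the inhibitors LEFTY2 by 1.88 (edgeR, adjusted p = 0.0696) and CER1 by 2 (edgeR, adjusted p = 0.0458). Several of these pooled rises were uneven between the lines in level, and the difference of changes was not tested for these genes. LEFTY2 went from 7.25 and 7.96 to 60.7 and 61 CPM in H1 and from 17.5 and 17.8 to 9.01 and 14.2 CPM in MEL1. CER1 was at 1.69 and 0.227 CPM at S0 and 8.08 and 17.9 CPM at S3 in H1, and at 3.08 and 3.92 and then 4.25 and 2.71 CPM in MEL1. FURIN went from 45.2 and 65.1 to 422 and 475 CPM in MEL1, and was at 74.6 and 85.5 and then 82.6 and 81.4 CPM in H1. From S3 to S4, 0 rose and 1 fell against 0.351% of all genes that fell, FOXA2 (-1.41, edgeR adjusted p = 0.00481).

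The step from S4 to S6 had ALK5 inhibitor II, LDN-193189 for part of the time, and other additives in the medium. NODAL fell over both lines together at this step. The change was -7.04 in MEL1, and in H1 it was -1.50 and did not pass (edgeR, adjusted p = 0.27). Of the 20 listed genes 0 rose and 5 fell, where 2.33% of all genes fell, and the median was -0.57 against -0.03. Of the 5, 4 were inhibitors, as were 7 of the 20. The secreted Nodal antagonists LEFTY2 (-3.93, edgeR adjusted p = 0.0187) and CER1 (-3.84, edgeR adjusted p = 0.0172) fell, as did the intracellular brakes SKIL (-2.23, edgeR adjusted p = 0.000226) and SMAD7 (-1.46, edgeR adjusted p = 0.0244). SMAD7 was at 56.7 and 69 CPM at S4 and 11.2 and 10.1 CPM at S6 in MEL1, and at 8.64 CPM in both S4 libraries and 5.15 and 8.6 CPM at S6 in H1. FOXA2 was the other faller. From S0 to S6, 7 rose and 2 fell, LEFTY2 and SKIL, at shares of 17.5% and 13.8% of all genes. LEFTY1, the closest relative of LEFTY2, passed in none of the stage comparisons. In H1 it went from 8.45 and 9.32 CPM at S0 to 0.533 and 0.662 CPM at S6, and in MEL1 from 28.8 and 32.4 CPM at S0 to 7.98 and 8.48 CPM at S4 and 102 and 119 CPM at S6.

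Between the lines, 5 of the 20 pathway genes were higher and 1 lower in MEL1 at S0, where NODAL was 18.4-fold higher and 6.45% and 8.87% of all genes were higher and lower. The higher ones included LEFTY1 (1.78, edgeR adjusted p = 8.98e-05), LEFTY2 (1.21, edgeR adjusted p = 0.00997), SMAD7 (1.94, edgeR adjusted p = 4.94e-05) and SKIL (1.62, edgeR adjusted p = 4.65e-07), all inhibitors. The lower one was also an inhibitor, the activin-binding protein FSTL3 (-1.20, edgeR adjusted p = 0.00876). At S3, with NODAL still higher in MEL1, both LEFTY genes were lower there, LEFTY1 at a log2 difference of -1.77 and LEFTY2 at -2.38 (edgeR, adjusted p = 0.000244 and 2.44e-06), while SMAD7 (1.85, edgeR adjusted p = 1.02e-05) and SKIL (1.15, edgeR adjusted p = 3.31e-06) were still higher, and 5 of the 20 were higher and 6 lower (13.3% and 16.5% of all genes). SOX17, a defining factor of definitive endoderm, was at 29.2 and 26.2 CPM in H1 and at 0.50 and 0.903 CPM in MEL1 at S3 (log2 difference -5.23, edgeR adjusted p = 1.38e-07). FOXA2 was higher in MEL1 by 1.10 at that stage (edgeR, adjusted p = 1.36e-06). At S4, 7 were higher and 4 lower in MEL1 (15.6% and 18.4% of all genes), and FURIN, a protease that cleaves the NODAL precursor, was at 817 and 845 CPM against 83.2 and 87.7 CPM in H1 (log2 difference 3.28, edgeR adjusted p = 1.31e-12). At S6, where NODAL was near 0 in both lines, 6 were higher and 2 lower (11.7% and 10.8% of all genes), LEFTY1 (edgeR, adjusted p = 1.11e-11) and LEFTY2 (edgeR, adjusted p = 3.81e-05) among the higher. H1 had 3 LEFTY1 reads in each S6 library, and 1 and 0 LEFTY2 reads, so no fold is given.

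A list of 36 genes around CXCR4 had 14 with counts. CXCL12, its ligand, was not among them, and without a merged peak it was not measured. MIF, another listed ligand, had counts and passed in none of the stage comparisons. At S0 its log2 difference, MEL1 minus H1, was -2.58 (edgeR, adjusted p = 0.00218). From S0 to S3, 2 of the 14 rose (14.3%, against 15% of all genes) and 0 fell (13.8% of all genes), ACKR3 and RGS12 (1.26, edgeR adjusted p = 0.00187). ACKR3, the atypical receptor that also binds CXCL12, was at 1.03 to 1.69 CPM at S0 and at 44 to 49 CPM at S3 in both lines (log2 fold change 5.02, edgeR adjusted p = 1.13e-08), with no difference between lines that passed at S3 (-0.07, edgeR adjusted p = 0.804). CXCR4 was at 1.25 and 2.48 CPM in MEL1 at the same stage. From S3 to S4 and from S4 to S6, 0 of the 14 passed by edgeR, where 1.84% and 5.18% of all genes did, and by DESeq2 2 passed from S4 to S6, where 7.21% of all genes did. From S0 to S6, 4 rose and 1 fell (17.5% and 13.8% of all genes), the faller being ARRB1, an arrestin that uncouples activated receptors (-1.70, edgeR adjusted p = 0.000143). RGS16, a regulator that speeds the switching off of G proteins, was higher in MEL1 at S6 (2.21, edgeR adjusted p = 6.37e-07) and lower there at S3 (-3.53, edgeR adjusted p = 5.51e-08) and S4 (-4.14, edgeR adjusted p = 2.78e-08).

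**Figure D3:**
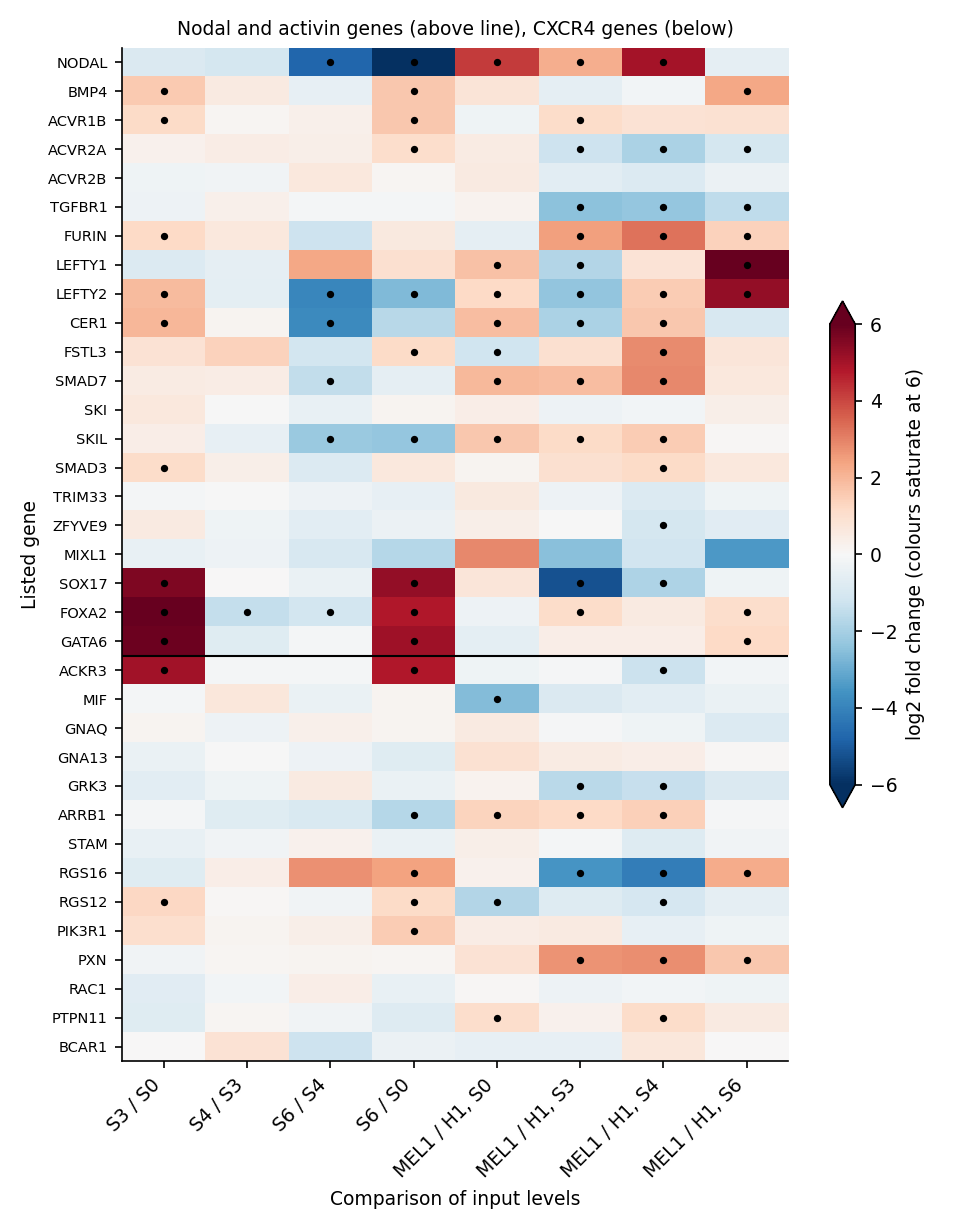
Log2 fold changes of input level for the listed genes with counts, in 4 stage comparisons over both lines and for MEL1 over H1 at each stage. Red is higher and blue is lower, the colours saturate at 6, and black dots mark calls. NODAL is in the top line of cells, and the Nodal and activin genes above the line include the 9 that rose and none that fell from S0 to S3.

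The genes whose input levels followed NODAL most closely were sought among 5531 genes of at least 10 CPM on average, by Pearson's r of log2 CPM over the 16 input libraries. The closest 5 were ARRB1 (r = 0.967), RRP36 (0.934), NT5C2 (0.931), SKIL (0.926) and TEAD4 (0.92). ARRB1 was at 166 and 145 CPM in MEL1 and at 56.8 and 64.8 CPM in H1 at S0, and at 25.4 to 31.5 CPM in both lines at S6. The closest to CXCR4 were WNT7B (0.963), TFAP2A (0.963), PEG10 (0.96), CERCAM (0.958) and FUT11 (0.951). WNT7B encodes a Wnt ligand and TFAP2A a transcription factor of neural crest and surface ectoderm. TFAP2A was at 17.5 and 17.3 CPM in H1 and at 0.25 and 0.451 CPM in MEL1 at S3, and at 91.3 to 98.9 and 71.7 to 72.6 CPM at S6. The libraries share lines and stages, so these correlations describe likeness over 4 stages of 2 lines and carry no p.

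The m6A signal was examined next. Peaks entered the table because the study's peak caller found IP over input there in some libraries, so enrichment as such is part of how they were chosen. At S0, 30.7% of all peaks were called enriched, at S3 30.3%, at S4 20.8% and at S6 28.4%. NODAL_344 was enriched at S0 (log2 IP over input 2.59, SE 0.61, edgeR adjusted p = 0.000793), at S3 (2.18, SE 0.61, edgeR adjusted p = 0.00337) and at S4 (2.46, SE 0.65, edgeR adjusted p = 0.00233), but not at S6 (0.41, SE 1.21, edgeR adjusted p = 0.784), where there were 4 input and 22 IP reads in all, 17 of the latter in MEL1 replicate 2.

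The IP signal of NODAL per input overlapped between the lines at S0 and S3, although the amount of its RNA did not. The log2 ratios per preparation were 2.98 and 2.06 in H1 and 2.62 and 2.70 in MEL1 at S0, and 2.48 and 1.76 in H1 and 1.78 and 2.82 in MEL1 at S3. The reads behind the S0 values were 421 and 429 IP reads in H1 and 10014 and 11891 in MEL1. The lines overlapped at both stages, and the difference, MEL1 minus H1, was 0.15 at S0 (95% interval -1.02 to 1.31, edgeR adjusted p = 0.912) and 0.15 at S3 (95% interval -1 to 1.29, edgeR adjusted p = 0.971), with 17.5% and 3.67% of peaks called.

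At S4 the lines parted. The log2 ratios were 4.11 and 4.59 in H1, from 277 and 310 IP reads over 5 input reads each, and 0.76 and 0.78 in MEL1, from 211 and 198 IP reads over 72 and 77 input reads. The difference was -3.74 (SE 0.73, edgeR adjusted p = 0.000334) at a stage where 42.2% of all peaks differed between the lines and the IP libraries of both lines stood apart. Those of MEL1 were the shallowest, with 2483580 and 2378881 reads, and those of H1, where NODAL_344 was high, had the lowest mitochondrial share (0.0465 and 0.051%), whose part in the result was not tested. With all IP libraries thinned to the depth of the shallowest, the difference still passed, and over all alternatives it ranged from -3.75 to -3.12 (adjusted p from 3.86e-06 to 0.0129 with edgeR or DESeq2). In MEL1 alone NODAL_344 was not called enriched at S4 (0.78, edgeR adjusted p = 0.23), so the pooled S4 call rests on H1. At S6 the ratios were -0.66 and -0.75 in H1 and -2.11 and 4.08 in MEL1, from at most 2 input reads a library, and no difference could be resolved (2.79, 95% interval -1.41 to 6.99, edgeR adjusted p = 0.587).

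**Figure D4:**
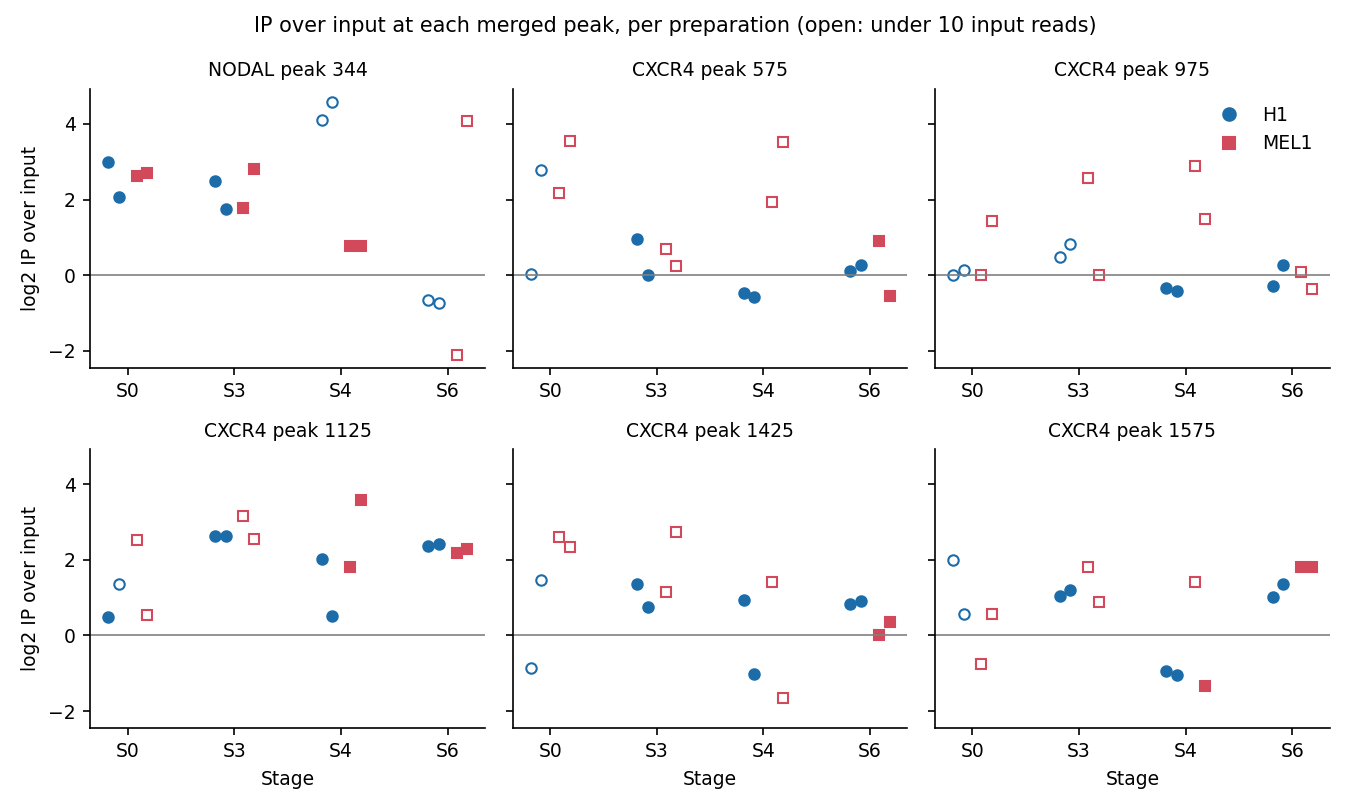
Log2 IP over input at each of the 6 merged peaks, 1 point per preparation, by stage and line (blue circles for H1 and red squares for MEL1). Open symbols have fewer than 10 input reads. NODAL_344 overlaps between lines at S0 and S3 and is apart at S4, and CXCR4_1125 is above 0 in all 16 preparations.

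Of the CXCR4 peaks, CXCR4_1125 was called enriched at all 4 stages, least firmly at S0. Its log2 IP over input was 1.88 at S0 (SE 0.63, edgeR adjusted p = 0.0136), 2.61 at S3 (SE 0.55, edgeR adjusted p = 0.000188), 1.60 at S4 (SE 0.51, edgeR adjusted p = 0.0108) and 2.33 at S6 (SE 0.52, edgeR adjusted p = 0.000347). Per preparation the ratios were 0.48 and 1.37 in H1 and 2.53 and 0.54 in MEL1 at S0. They were 2.62 and 2.64 in H1 and 3.16 and 2.54 in MEL1 at S3, and 2.38 and 2.43 in H1 and 2.18 and 2.28 in MEL1 at S6. The S6 values lay between 2.18 and 2.43, although input reads were 822 and 695 in H1 and 79 and 78 in MEL1. At S4 they were 2.01 and 0.51 in H1 and 1.81 and 3.59 in MEL1, H1 replicate 2 being low with 908 input reads against 176 in replicate 1. Over the 16 preparations the ratio ranged from 0.48 to 3.59 (2.07 ± 0.92, SD). The S4 call was lost without cell line in the model. Leaving out 1 preparation at a time gave S4 values of 1.27 to 2.27. The S0 call was lost without MEL1 S0 replicate 1 (0.92, edgeR adjusted p = 0.168), in H1 alone (0.91, edgeR adjusted p = 0.199), without cell line in the model (1.35, edgeR adjusted p = 0.276), with thinned IP (1.31, edgeR adjusted p = 0.104) and with RLE scaling (1.30, edgeR adjusted p = 0.101), and both lines together had 27 input reads at that stage.

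The other 4 CXCR4 peaks were weaker or too thin to place. CXCR4_575 (3.69, SE 1.39, edgeR adjusted p = 0.0268) and CXCR4_1425 (3.01, SE 1.26, edgeR adjusted p = 0.0464) were called enriched at S0. Their input held at most 2 reads a library there, and both calls rested on MEL1: in H1 alone they were 1.94 and 0.32 and did not pass. CXCR4_575 was lost without MEL1 S0 replicate 2 (3.04, edgeR adjusted p = 0.111), and CXCR4_1425 without either MEL1 S0 replicate (2.88 and 3.03). CXCR4_1575 was called at S6 (1.51, SE 0.59, edgeR adjusted p = 0.0284), with ratios of 1.01 and 1.36 in H1 and 1.81 and 1.82 in MEL1, and lost without MEL1 S6 replicate 2 (1.39, edgeR adjusted p = 0.101), by DESeq2 (1.01, adjusted p = 0.115) and with RLE scaling (1.01, edgeR adjusted p = 0.153). CXCR4_975 was called at none of the stages. With the preparation as a block, CXCR4_1425 (1.44, edgeR adjusted p = 0.0822) and CXCR4_1575 (1.25, edgeR adjusted p = 0.0283) were also called enriched at S3.

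Within CXCR4, IP reads gathered at CXCR4_1125. In the 12 preparations of S3, S4 and S6 this peak held a median of 53.2% of the gene's input reads (22.2 to 69.7%) and 73.3% of its IP reads (63 to 85.2%), and its IP share was above its input share in 12 of 12. At S0, where a preparation had 7 to 14 CXCR4 input reads, its share did not go one way: it was 85.7% of input and 86% of IP reads, and 75 and 71.2%, in H1, and 38.5 and 62.8%, and 57.1 and 22%, in MEL1. Input reads were also few in the MEL1 preparations of S3, which are among the 12 (5 and 11 CXCR4 reads). The shares of the other peaks were lower in IP than in input in most of the 12 preparations. The medians were 17.4 and 6.64% at CXCR4_575, 3.32 and 1.2% at CXCR4_975, 8.14 and 4.14% at CXCR4_1425, and 15.9 and 9.11% at CXCR4_1575. IP shares exceeded input shares in 3, 2, 2 and 2 of 12 preparations at those peaks. Shares within a sample must sum to 100%, so a gain at one peak takes from the others, and since peak widths were not used, shares of different peaks are not on one scale per length.

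**Figure D5:**
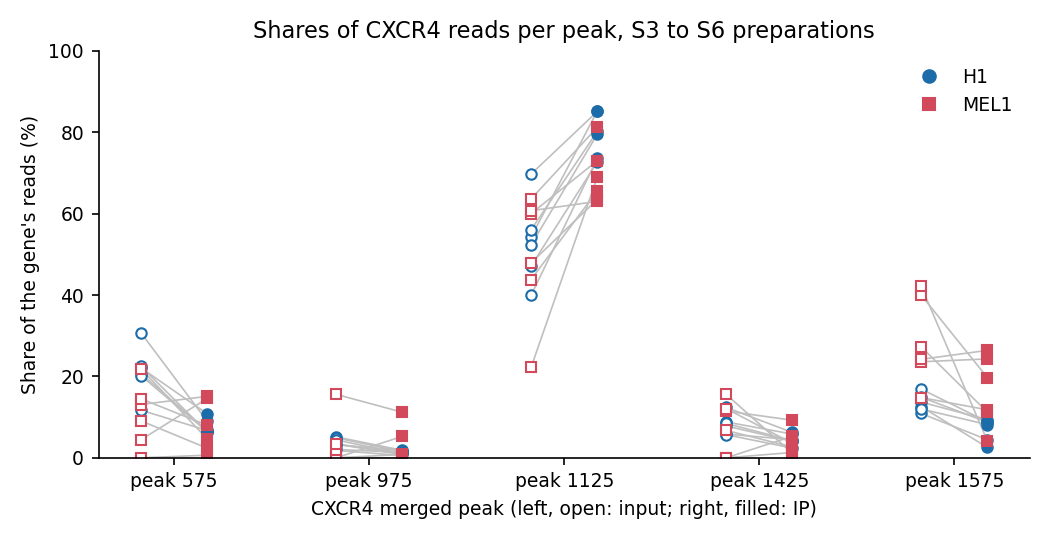
Share of the CXCR4 reads of a library that fell in each merged peak, in percent, for input (open, left) and IP (filled, right) of the 12 preparations from S3 to S6, joined by preparation (blue circles for H1 and red squares for MEL1). The share at CXCR4_1125 goes up from input to IP in 12 of 12 preparations.

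With both lines together, no m6A change between stages passed at any of the 6 peaks. The counts were 0 of 6 from S0 to S3, S3 to S4, S4 to S6 and S0 to S6 with edgeR, against 0.0498%, 6.6%, 7.58% and 1.26% of all peaks. They were 0 with DESeq2 too, against 0.64%, 7.74%, 13.2% and 6.03%. An unadjusted p under 0.05 was reached by 3 of these 24 tests, a level that 6.19%, 18.3%, 20.2% and 12.8% of all peaks reached in the 4 comparisons. They were CXCR4_575 from S0 to S3 (-3.42, unadjusted p = 0.046 by edgeR) and from S0 to S6 (-3.52, unadjusted p = 0.0369 by edgeR), and CXCR4_1575 from S4 to S6 (1.92, unadjusted p = 0.0301 by edgeR). With the preparation as a block the last of these passed (2.06, edgeR adjusted p = 0.0655). The same change of CXCR4_1575 also passed without MEL1 S0 replicate 1 (1.90) or MEL1 S4 replicate 1 (2.66). CXCR4_1125 had log2 differences of 0.73 (SE 0.84), -1.01 (SE 0.73), 0.72 (SE 0.71) and 0.44 (SE 0.83) in the 4 comparisons, none of which passed. For NODAL_344 the pooled changes were -0.41 (SE 0.83), 0.28 (SE 0.84), -2.05 (SE 1.52) and -2.18 (SE 1.52). In H1 alone, NODAL_344 was 2.44 higher at S4 than at S3 (SE 0.52, edgeR adjusted p = 0.000939), while in MEL1 alone the value was -1.40 (edgeR, adjusted p = 0.237), which are the S4 values of each line seen from S3. H1 alone, whose S4 IP libraries had the low mitochondrial share and where 46.2% of all peaks were called from S3 to S4, also gave calls at 3 CXCR4 peaks, all lower at S4, CXCR4_1125 (-1.61, edgeR adjusted p = 0.00589), CXCR4_1425 (-1.23, edgeR adjusted p = 0.0608) and CXCR4_1575 (-2.18, edgeR adjusted p = 0.00115). From S4 to S6, where 41.6% of all peaks were called in H1 alone, NODAL_344 (-5.55, edgeR adjusted p = 0.00395), CXCR4_1125 (1.27, edgeR adjusted p = 0.0147) and CXCR4_1575 (2.10, edgeR adjusted p = 0.000501) passed there. From S0 to S6, with 10.8% called, NODAL_344 passed (-3.49, edgeR adjusted p = 0.0818), on 3 input reads at S6.

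Between the lines, 1 of the 5 CXCR4 peaks differed in IP over input at S4 and 0 at S0, S3 and S6, the last at 2.97% of all peaks. At S4 this count was 2 or 3 by DESeq2, with thinned IP, with TMM within IP and input, or with the preparation block. In those settings 35.2 to 45.8% of all peaks differed. CXCR4_575 was at -0.48 and -0.57 in H1 and at 1.93 and 3.52 in MEL1 at S4, the latter from 8 and 2 input reads, a difference of 3.05 (SE 0.72, edgeR adjusted p = 0.00189) against the 42.2% of all peaks that differed. CXCR4_1125 was 1.40 higher in MEL1 at that stage and did not pass (SE 0.68, edgeR adjusted p = 0.112). It passed with the preparation as a block (1.30, edgeR adjusted p = 0.0907), by DESeq2 (1.68, adjusted p = 0.0464) with TMM scaling within IP and within input (1.78, edgeR adjusted p = 0.0392) and with thinned IP libraries (2.02, edgeR adjusted p = 0.0114). It also passed without H1 S4 replicate 1 (2.48), MEL1 S4 replicate 1 (2.61) or either MEL1 S0 replicate (1.41), and was 0.41 without H1 S4 replicate 2 and 0.80 without MEL1 S4 replicate 2, so the S4 value rests on single preparations. It differed by 1.13 (SE 1.10) at S0, 0.22 (SE 0.89) at S3 and -0.17 (95% interval -1.39 to 1.04) at S6. The S4 difference of CXCR4_575 and that of NODAL_344 thus had opposite signs in the same libraries. With IP libraries thinned to the depth of the shallowest, 40.9% of all peaks differed between the lines at S4, and both differences passed (-3.12 at NODAL_344 and 3.91 at CXCR4_575, edgeR adjusted p = 7.65e-05 and 8.16e-05).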

How the data were processed

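Reads were counted by the authors: mapped reads in 50-bp bins of genes (Ensembl version 94) were used to call and merge peaks with MeRIPtools, and the deposited table holds raw counts per merged peak for 16 input and 16 IP libraries of H1 and MEL1. Aligner, genome build and the strand setting of the counting are not given in the sources used here. Library kits were stranded. No column of per-sample values was left unused. IDs were matched without version to gene symbols (7938 of 7978 genes).

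NODAL and CXCR4 and the gene lists were chosen with earlier results of these data known. A gene's input counts were summed over its peaks, so expression covers peak regions only. Features with a total of at least 10 reads were tested with edgeR 4.0.16 (R 4.3.3, TMM, quasi-likelihood, limma 3.58.1), and DESeq2 1.42.0, the study's own tool, was an alternative. Stage tests had cell line as a term, and line differences came from a mean for each line and stage. Calls needed an adjusted p below 0.1, and at least 2-fold except for differences of changes and for IP over input between lines. The comparisons of MEL1 with H1 at single stages, and the summary counts of enriched peaks, were added after seeing the data. Standard errors are log2 changes over the root of the F statistic. IP over input per preparation is a difference of log2 CPM with a prior count of 1. Scripts were tested on simulated data.

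Named were both genes with all peaks, listed pathway genes called from S0 to S3 (the 8 most abundant of a list), LEFTY1, LEFTY2 and ACKR3, and the 5 genes most like each member (log2 CPM with a prior count of 2). The single markers, and the further pathway genes (among them CER1, MIXL1, FSTL3, SKIL, SMAD7, ARRB1 and RGS16), were chosen after their values were seen. One gene of the Nodal and activin list, not NODAL, is not reported here. List counts and medians are over the other genes. Replicates of a group differed by more than counting noise (chi-square per degree of freedom 1.68 to 36.5). IP and input of a preparation come from the same RNA by the protocol, and their deviations from group means correlated at -0.31 to 0.13. Alternatives covered other normalizations, filters, tools, blocks, thinned IP depth, single lines and leaving out each replicate.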

Additional observations from a re-analysis of the deposited data

Results flagged for a closer look

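For 6 expression changes, the course in H1 differed from that in MEL1 by edgeR's test of the difference of changes (H1 minus MEL1, log2, Benjamini-Hochberg adjusted). For CXCR4 this was 3.64 from S0 to S3, where H1 was higher at S3 in both replicates and MEL1 was near 2 CPM at both stages. From S0 to S6 it was 1.77. For NODAL it was 2.03 from S0 to S3, when only MEL1 fell, -2.82 from S3 to S4, when only H1 fell, 5.54 from S4 to S6 and 4.74 from S0 to S6. Such differences passed at 45.9% (S0 to S3), 14.1% (S3 to S4), 23.1% (S4 to S6) and 36.3% (S0 to S6) of all genes. The last 2 NODAL values rest on the S6 libraries with 0 to 2 reads each.

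At S4, IP over input differed between the lines at 2 of the 6 peaks (MEL1 minus H1, log2). It was -3.74 at NODAL_344, where H1 had 5 input reads in each library, and 3.05 at CXCR4_575, where MEL1 had 8 and 2. By DESeq2, with thinned IP, with TMM within IP and input, or with the preparation block, NODAL_344 and 2 or 3 CXCR4 peaks differed. In those settings 35.2 to 45.8% of all peaks did. At this stage 42.2% of all peaks differed between the lines, the MEL1 IP libraries were the shallowest of the series, and the H1 IP libraries had a mitochondrial share of 0.0465 and 0.051% against 0.388 to 2.25% in all other IP libraries.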

How the results depend on the processing

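Of 2628 recomputed values, 2441 kept their direction and their side of the threshold. The fall of NODAL and the rise of CXCR4 from S0 to S6, and the 6 line differences that passed at single stages, did so under each alternative run for them. Where a value did not hold, the cause was not tested. Few reads stood behind the lowest levels. NODAL had 4 input reads at S6 and 10 in H1 at S4, and CXCR4 had 42 at S0.

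With H1 alone, NODAL expression changed by 0.20 from S0 to S3, -2.76 from S3 to S4 (passed) and -1.53 from S4 to S6 (lost). With MEL1 alone it changed by -1.87 (passed) and 0.04 at the first steps, and CXCR4 by -0.21 from S0 to S3. Without cell line in the model, CXCR4 from S3 to S4 (2.28) and S4 to S6 (1.18) and NODAL from S4 to S6 (-5.67) were lost. Same-numbered samples deviated together across stages in MEL1 (6 pairs of stages, correlations 0.19 to 0.24) and not in H1 (-0.06 to 0.07), so over both lines the numbers were not taken to pair the samples. With the number as a replicate block, CXCR4 from S4 to S6 was 1.41 (edgeR, adjusted p = 0.114), no other call of the members' stage changes was lost, and 1 gene of the CXCR4 list passed at that step (4.23% of all genes), as did 2 by DESeq2 (7.21%).

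Peaks with an m6A change in H1 alone numbered 3 for CXCR4 from S3 to S4 and 2 from S4 to S6, and 1 for NODAL from S3 to S4, S4 to S6 and S0 to S6 (46.2%, 41.6% and 10.8% of all peaks at these steps), and 1 CXCR4 peak passed from S4 to S6 with the preparation as a replicate block (6.82% of all peaks). CXCR4 peaks enriched at S0, 3 in the report, numbered 0 in H1 alone, 0 without cell line and 1 with RLE scaling (35.8%, 28.1% and 19.6% of all peaks enriched). At S3, 1 became 3 in H1 alone (35.2%), 2 with TMM within IP and input (33.1%) and 3 with the preparation block (30.6%). At S4, 1 became 2 in MEL1 alone (15.9%) and 0 without cell line (19%). At S6, 2 became 1 by DESeq2 (20.9%) and RLE (20.2%). NODAL_344 was not enriched at S4 in MEL1 alone or without cell line (0 peaks). CXCR4 peaks that differed between lines at S4 numbered 3 by DESeq2 and with thinned IP (45.8% and 40.9% of all peaks), and 2 with TMM within IP and input and with the preparation block (41.7% and 35.2%).

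Signs turned at peaks that had not passed. IP over input turned at S6 for NODAL_344 (DESeq2 -0.15, H1 alone -0.94, thinned -0.70, RLE -0.02) and CXCR4_575 (DESeq2 -0.32, thinned -0.02, RLE -0.33), at S3 for CXCR4_575 (DESeq2 -0.32, RLE -0.39), at S4 in H1 alone for CXCR4_1425 (-0.11), CXCR4_575 (-0.46) and CXCR4_975 (-0.31), and for CXCR4_1575 at S0 (H1 alone 1.58, TMM within 0.04, preparation block 0.24) and S4 (MEL1 alone 0.25, TMM within 0.13). It also turned for CXCR4_975 at S6 (TMM within 0.12), for CXCR4_1425 at S4 (preparation block -0.0026), and for the line difference of CXCR4_1125 at S6 (DESeq2 0.10, thinned 0.19, TMM within 0.11). Stage changes in m6A turned in H1 alone for CXCR4_1425 (0.79 and 0.51 from S0 to S3 and S6), CXCR4_1575 (-0.37 and -0.45), CXCR4_575 (-0.98 from S3 to S4, 0.61 from S4 to S6) and CXCR4_975 (0.45, -1.07 and 0.25 at the 3 steps). In MEL1 alone they turned for NODAL_344 (-1.40 from S3 to S4, 1.15 from S4 to S6), CXCR4_1125 (-0.15 from S4 to S6), CXCR4_1425 (1.83 from S0 to S3, -0.47 from S4 to S6) and CXCR4_975 (2.40 and -2.48 at the first steps). CXCR4_1425 from S4 to S6 was -0.18 by DESeq2, -0.15 with RLE and -0.01 with TMM within. Without cell line, the values from S3 to S4 were -0.96 (NODAL_344), -0.26 (CXCR4_575) and -0.44 (CXCR4_975), and that of CXCR4_575 from S4 to S6 was 0.01. With the preparation block CXCR4_975 gave 0.16 and -0.62 at the first steps.

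Leaving out 1 library or preparation at a time gave these ranges. For expression, CXCR4 from S4 to S6 gave 1.20 to 1.69, and MEL1 against H1 at S0 -0.73 to 0.22. H1 minus MEL1 changes of CXCR4 gave -1.99 to -0.83 (S3 to S4), -1.04 to 0.12 (S4 to S6) and 1.32 to 2.27 (S0 to S6). NODAL from S0 to S3 gave -1.26 to -0.43, MEL1 against H1 at S6 -3.51 to 0.30, and H1 minus MEL1 changes 4.74 to 8.55 (S4 to S6) and 3.92 to 7.72 (S0 to S6). Of the CXCR4 peaks, 0 to 1 changed from S4 to S6, 1 to 2 different between lines at S4, and 1 to 3, 1 to 2 and 1 to 2 enriched at S0, S3 and S6. IP over input ranged as follows, for NODAL_344 at S6 -1.40 to 1.08, CXCR4_1425 at S4 -0.48 to 0.77, CXCR4_1575 at S0 -0.45 to 1.52 and S4 -1.13 to 0.13, CXCR4_575 at S3 -0.16 to 0.63 and S6 -0.05 to 0.42, CXCR4_975 at S4 -0.03 to 1.66 and S6 -0.29 to 0.02. Between lines NODAL_344 gave -0.35 to 0.59 (S0), -0.32 to 0.73 (S3) and -3.92 to 7.90 (S6), CXCR4_1125 -0.29 to 1.76 (S0), -0.02 to 0.67 (S3), 0.41 to 2.61 (S4) and -0.22 to 0.14 (S6). Stage changes in m6A were, for NODAL_344 from S3 to S4 -0.28 to 0.85, CXCR4_1425 from S4 to S6 -0.18 to 1.03, CXCR4_1575 from S0 to S3 -0.38 to 1.59, CXCR4_975 -1.25 to 0.75 from S0 to S3 and -0.98 to 0.87 from S3 to S4. A group left with 1 library was assumed to vary like the others.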

Other observations

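CXCR4 and other markers of definitive endoderm did not keep the same order between the lines at S3. KIT, the receptor tyrosine kinase used with CXCR4 to sort definitive endoderm, was at 15.5 and 10.4 CPM in MEL1 and at 4.73 and 2.88 CPM in H1, and HHEX, a homeobox gene of foregut endoderm, at 12 and 10.2 CPM in MEL1 and at 11 and 10.7 CPM in H1. The 6 of 9 listed definitive endoderm markers with counts, FOXA2 being the most abundant, summed to 881 to 944 CPM in MEL1 and 485 to 492 CPM in H1. CXCR4, SOX17 and CER1 (8.08 and 17.9 CPM in H1, 4.25 and 2.71 CPM in MEL1) lay higher in H1. These markers were picked after their values were seen and are listed here without a test.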
